A study of Caenorhabditis elegans with 2 samples.

Results

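The promoters of 1310 chemoreceptor genes of Caenorhabditis elegans were examined for regions recovered with the LIM homeodomain factor LIN-11. The genes were chosen by name from the 19973 protein-coding genes on the 6 nuclear chromosomes of the WBcel235 annotation. They are all those whose name is the prefix of a serpentine receptor family followed by a number, from sra, srab, srb and sre through srh, sri, srj, srd and str to srw and srz, together with odr-10. The rule reads gene names only. A promoter was taken as the 1000 bp on either side of any annotated start site of a gene. The chromatin came from late embryos, labelled 4.25 hours and synchronised by egg bleaching, of strain OP62 (unc-119(ed3) III; wgIs62). Its worms carry an integrated transgene whose LIN-11 is fused at the C terminus to GFP and FLAG, and the fusion was recovered with an anti-GFP antibody after sonication. The series held 1 group of 2 biological replicates from pooled males and females, and no untagged or wild-type group was analysed here. Whole embryos were used, so a site bound in few cells and a site bound weakly in many cannot be told apart.

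Chemoreceptors of these families are G protein-coupled receptors. Sensory neurons of the worm place known ones in their cilia, where they bind odorants, tastants or pheromones, but most members were chosen here by name only. A single sensory neuron type can express many of these receptors, and many of the genes lie in tandem clusters on the chromosome arms, above all on chromosome V. LIN-11 acts in the fates of several neurons, among them the olfactory and chemosensory neurons AWA and ASG, and in the vulva. The gene odr-10 encodes the receptor for diacetyl and is a textbook marker of AWA.

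The authors deposited a list of regions for each replicate, a list from both replicates together, called the pooled list here, and a list of the regions that passed the irreproducible discovery rate, called the reproducible regions. On the nuclear chromosomes these held 21419 (replicate 1), 18714 (replicate 2), 20670 and 539 regions, and all 539 reproducible regions were among those of the pooled list. By its deposited name the pooled list holds peaks and background, as input for the irreproducible discovery rate. A pooled-list summit outside the reproducible regions may therefore be background and is not by itself shown to be LIN-11 binding. Each region carries a signal value from the authors' peak caller, on a scale that no label or header states. It was used only to rank regions within a list, with rank 1 the strongest. Read depth is unknown from these lists, and the exact Clopper-Pearson 95% intervals given below cover counting error over genes only. Neighbouring receptor genes are not independent of each other. All shares that follow are descriptions, and the differences between members and other genes were not tested.

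The sequences under the strongest receptor-gene summits fell into 2 kinds, those at a small RNA gene and those without one. The first pair below shows 200 bases around the summits upstream of srh-269 and srd-44, with a tRNA gene in capitals. The next pair shows the whole reproducible region upstream of sre-1 and the 101 bases centred on the summit of srj-18. Both hold no match to TAATTA on either strand, none to TAATTG and none to CACCTG. The last pair shows the 250 bases before the start of srz-58 and of odr-10, with such matches in capitals. These stretches are not centred on summits, and the srz-58 summit, 287 bp upstream, lies outside its stretch. A small RNA gene that overlaps the srz-58 stretch is left in lower case, as are motif matches in the first pair. All are from WBcel235 (ce11), 5′ to 3′ on the strand of the receptor gene.
srh-269 (chrV:16592157-16592356, minus strand): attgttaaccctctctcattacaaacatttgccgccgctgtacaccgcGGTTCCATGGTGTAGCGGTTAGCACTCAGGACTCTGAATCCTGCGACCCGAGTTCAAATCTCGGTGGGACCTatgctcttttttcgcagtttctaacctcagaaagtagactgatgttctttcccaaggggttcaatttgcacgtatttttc
srd-44 (chrX:12337992-12338191, plus strand): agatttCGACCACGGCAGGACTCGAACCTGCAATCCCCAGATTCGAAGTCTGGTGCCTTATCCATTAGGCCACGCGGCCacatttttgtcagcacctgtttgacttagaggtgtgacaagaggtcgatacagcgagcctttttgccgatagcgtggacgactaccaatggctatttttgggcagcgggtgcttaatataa
sre-1 (chrII:7708723-7708853, plus strand): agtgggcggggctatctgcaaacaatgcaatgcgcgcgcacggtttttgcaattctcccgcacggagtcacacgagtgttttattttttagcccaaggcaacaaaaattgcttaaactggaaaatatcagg
srj-18 (chrV:2773852-2773952, plus strand): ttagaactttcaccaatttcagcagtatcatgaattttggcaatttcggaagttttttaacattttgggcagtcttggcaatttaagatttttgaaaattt
srz-58 (chrV:17317897-17318146, plus strand): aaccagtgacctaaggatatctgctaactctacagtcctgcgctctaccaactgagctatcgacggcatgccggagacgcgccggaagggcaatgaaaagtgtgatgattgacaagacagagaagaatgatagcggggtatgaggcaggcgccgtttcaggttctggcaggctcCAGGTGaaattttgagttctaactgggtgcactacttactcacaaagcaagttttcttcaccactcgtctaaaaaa
odr-10 (chrX:6865940-6866189, minus strand): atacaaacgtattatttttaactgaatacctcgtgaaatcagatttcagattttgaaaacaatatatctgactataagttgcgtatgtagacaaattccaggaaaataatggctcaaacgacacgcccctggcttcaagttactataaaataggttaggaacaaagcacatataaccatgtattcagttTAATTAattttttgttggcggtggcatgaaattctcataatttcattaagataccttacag

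The GC share of these windows was 47.0% for srh-269, 50.5% for srd-44 and 46.6% for sre-1. That of srj-18 was 29.7%. The capitals of srh-269 cover a tRNA-Gln gene of 72 bases read on the same strand as the receptor, and those of srd-44 cover 73 bases of a tRNA-Arg gene on the opposite strand. The capitals of srz-58 are CAGGTG, the reverse complement of CACCTG, and those of odr-10 are TAATTA.

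Reproducible LIN-11 summits were found in the promoters of 5 of the 1310 receptor genes (0.382%, 95% interval 0.124 to 0.888). Over all protein-coding genes the share was 2.10%. Among the other 18663 genes it was 415 (2.22%, 2.02 to 2.45), and among other genes of the same 1 Mb bins of the chromosomes, each bin weighted by its receptor genes, it was 1.49%. The 5 genes were sre-23, sre-1, sri-5, srh-269 and srh-16, of the families sre, sri and srh.

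The strongest was sre-23 (chromosome I, 8256301 to 8258939, minus strand). Its region (8259388 to 8259751) had the pooled-list signal 1046 and rank 4, with rank 4 and signal 598 in replicate 1 and rank 4 and signal 451 in replicate 2. The summit lay 625 bp upstream of the start and 66 bp from the snoRNA gene ZK265.10, whose class of products guides modification of other RNAs. No other protein-coding start lay within 1000 bp of it.

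Next was sre-1 (chromosome II, 7709704 to 7711504, plus strand), a receptor known from the ADL sensory neurons. Its region had signal 289.7 and rank 115, with rank 106 in replicate 1 and 129 in replicate 2. The summit lay 917 bp upstream, near the edge of the window, and was only 77 bp from the start of another gene, B0495.9. The nearest small RNA gene was 31296 bp away.

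For sri-5 (chromosome I, 11182795 to 11186206, plus strand), the summit lay 253 bp upstream, with signal 212 and rank 198, and with ranks 166 and 292 in replicates 1 and 2. It lay 479 bp from the start of rsr-1, which encodes a splicing-related SR protein, so sri-5 was the nearer gene. The tRNA gene shown above stood at the summit of srh-269 (chromosome V, 16590156 to 16592042, minus strand), 215 bp upstream, with rank 207 in the pooled list and ranks 211 and 249 in the replicates. For srh-16 (chromosome V, 12291861 to 12294196, plus strand), the summit was 66 bp upstream. It had rank 297, and ranks 226 and 508 in the replicates. Thus 2 of the 5 summits lay at a small RNA gene, and all 5 lay upstream of the receptor gene, outside any protein-coding gene.

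After these 5 the receptor genes dropped far down the pooled list. The sixth was srd-44 (chromosome X, 12338440 to 12340248, plus strand) at rank 884, with a summit 348 bp upstream and 22 bp from the tRNA-Arg gene. Its rank was 1905 in replicate 1 and 579 in replicate 2. The seventh, srz-58 (chromosome V, 17318147 to 17319515), had rank 1782 and a summit 287 bp upstream and 19 bp from a tRNA-Tyr gene. The eighth, srj-18 (chromosome V, 2774342 to 2776258), had rank 1837, 440 bp upstream, and no small RNA gene within 99821 bp. So 4 of the 8 summits within ranks 1 to 2000 were at a small RNA gene, whereas of the 1074 summits of those ranks near other genes only, 146 (13.6%) were.

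The next members by signal were sru-24, srxa-10, srz-69, srz-42, str-236, str-12 and srd-3, at ranks 2036 to 2568. All 7 summits were upstream, and none was at a small RNA gene. The replicates placed them less alike. For sru-24 the summit was in a region of replicate 2 only (rank 665), for srxa-10 in a region of replicate 1 only (rank 899), and for str-12 in a region of replicate 1 only (rank 3975). The ranks of srz-42 were 1387 and 8448 in replicates 1 and 2, and those of srd-3 were 14829 and 4012. The summit of srxa-10 lay inside an exon of mcm-6, a subunit of the replicative helicase, 24 bp from its start. The summit of str-12 was nearer to the start of fbxa-153 (211 bp) than to its own (295 bp), that of srz-42 was nearer to H12I19.115 (659 bp against 877 bp), and that of srz-69 lay in an intron of srz-70.

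**Figure D1:**
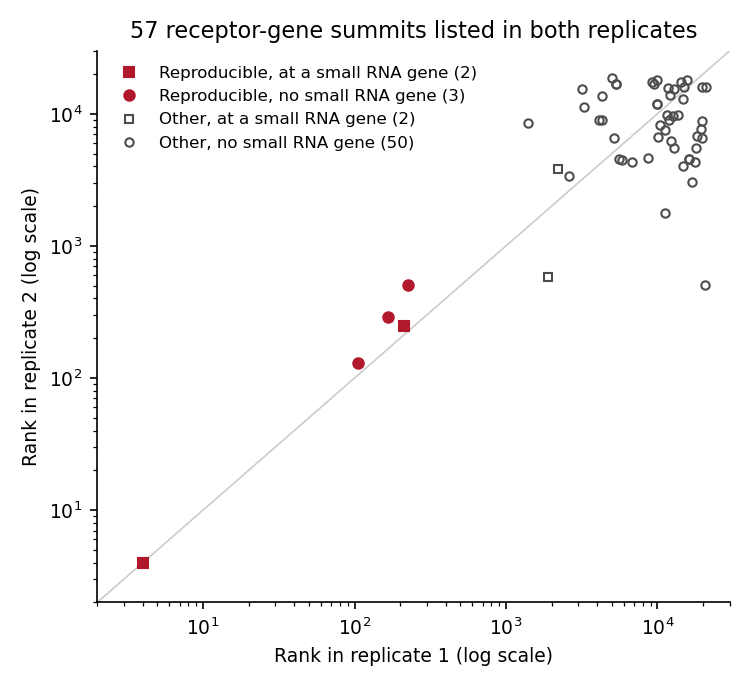
Rank in replicate 1 against rank in replicate 2, both on log axes, for the 57 receptor-gene summits of the pooled list that lie in a region of both replicates (1 point per summit, squares at a small RNA gene, red for reproducible regions). Summits inside the same region of a replicate carry the same rank there, so the points of sri-38 coincide, as do those of srh-89 and of sra-33. The 5 reproducible summits lie near the diagonal between ranks 4 and 508, and most of the others lie beyond rank 2000 in both.

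In the pooled list as a whole, 209 receptor genes had a summit (16%, 14.0 to 18.1), against 38.9% over all protein-coding genes and 40.5% (39.8 to 41.2) among the others. Among other genes of the same 1 Mb bins it was 31.3%, so that 9.21 points of the 24.5 between members and all others went with where the genes lie. Each replicate on its own gave values of the same kind. In replicate 1 it was 247 receptor genes (18.9%) against 40.3% over all genes, and in replicate 2 it was 234 (17.9%) against 36.9%. Only 85 receptor genes (6.49%, 5.22 to 7.96) had a summit in the lists of both replicates, against 23.5% over all genes and 17.7% of other genes in the same bins. Those summits need not be at the same place in the 2 replicates. A pooled-list summit inside a region of both replicates was at 52 receptor genes (3.97%), against 12.2% of other genes in the same bins. A summit in none of the pooled list and the replicate lists was the commonest state, at 890 receptor genes (67.9%), against 42.6% of other genes.

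The receptor genes that did have a pooled-list summit had mostly low-ranked ones. The strongest summit of each of the 209 ranged from rank 4 to 20666, with a median of 11728, which is 56.7% of the way down the list. For the 7557 other genes with a summit the median was 7776 (37.6%). Ranks 1 to 2067 held the strongest summit of 9 of the 209 (4.31%), and of 1339 of the 7557 (17.7%). Summits in those promoters numbered 233, of which 57 (24.5%) lay in a region of both replicates, 77 in replicate 1 only, 67 in replicate 2 only and 32 in neither. Near other genes only, 3249 of 9230 (35.2%) lay in a region of both. By rank, the share in both replicates was 8 of 8 near receptor genes and 93.2% near other genes only for ranks 1 to 2000, and 13 of 23 (56.5%) and 67.4% for ranks 2001 to 5000. For ranks 5001 to 10000 it was 21 of 56 (37.5%) and 36.9%, and for the ranks beyond it was 15 of 146 (10.3%) and 11%.

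**Figure D2:**
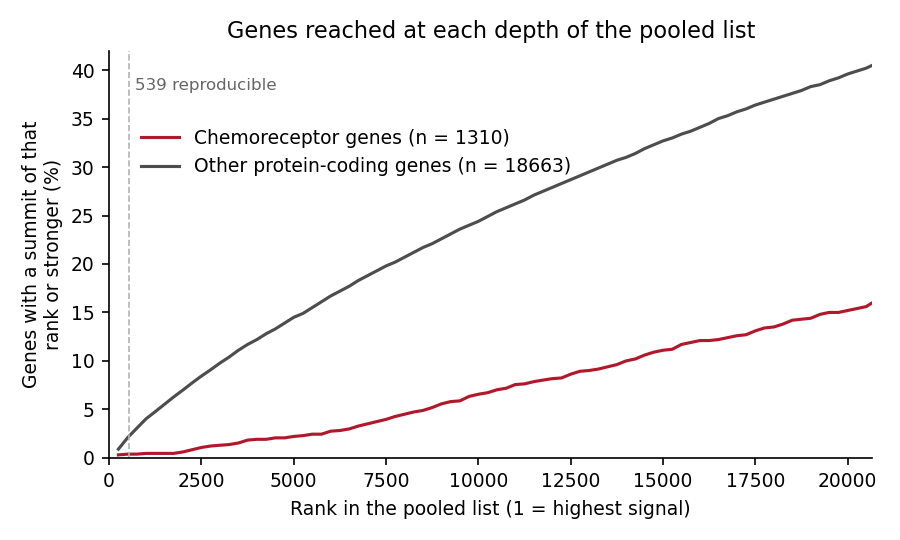
Share of genes with a summit within 1000 bp of a start at a given pooled-list rank or stronger, for 1310 chemoreceptor genes (red) and 18663 other protein-coding genes (grey), with a dashed line at rank 539, the number of reproducible regions. At the end of the list the shares are 16% and 40.5%, and by rank 2000 they are 0.611% and 7.0%.

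Over all receptor genes, summits showed no rise just before the start like that of other genes. Counted in bins of 200 bp from the most upstream start, other genes had 82.9 pooled-list summits per 1000 genes in the last 200 bp before the start, 41.8 in the bin from 1000 to 800 bp before it and 33.4 in the bin from 800 to 1000 bp after it. Receptor genes had 16.8, 19.1 and 21.4 in the same bins, from 22, 25 and 28 summits. The first 200 bp after the start held 15 summits of receptor genes, or 11.5 per 1000 genes. Other genes weighted to the same 1 Mb bins had 56.1 in the last 200 bp before the start and 31.8 and 25.7 in the outer bins. Annotated starts of receptor genes often carry no 5′ UTR, with one annotated for 292 of the 1310 (22.3%) against 81.2% of other genes. Among other genes without one, 46.8 summits per 1000 genes lay in the last 200 bp before the start. The share with a pooled-list summit was 45 of 292 receptor genes with an annotated 5′ UTR (15.4%) and 164 of 1018 without one (16.1%), against 43.2% and 28.7% of other genes. Per 1000 genes, receptor genes without one had 15.7 summits in the last 200 bp before the start and those with one had 20.5, the latter from 6 summits. The bin from 400 to 200 bp before the start held 17.7 and 34.2, the latter from 10 summits of 292 genes. Bins far from the start came close to the latter value. For receptor genes with an annotated 5′ UTR, the bin from 2000 to 1800 bp before the start held 30.8. The bin from 1600 to 1800 bp after it also held 30.8, each from 9 summits.

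**Figure D3:**
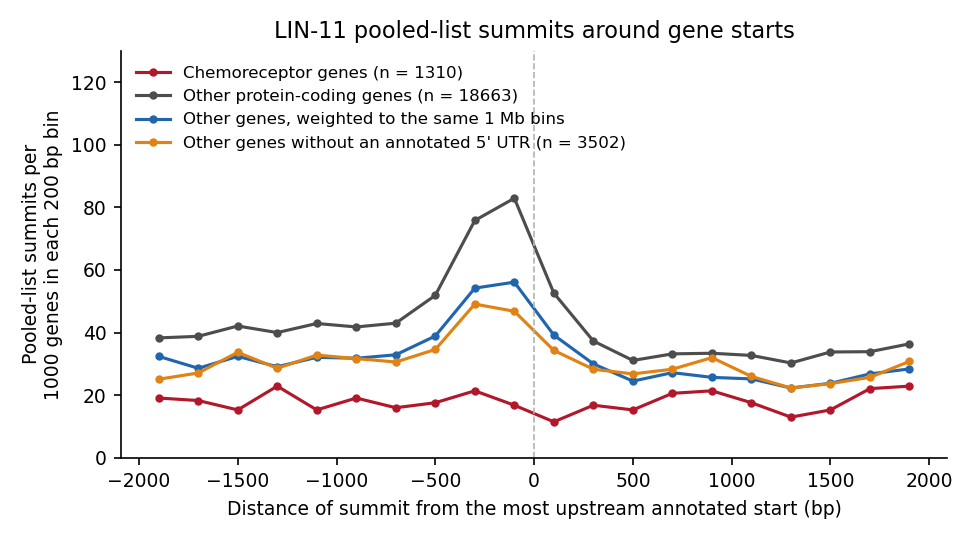
Pooled-list summits per 1000 genes in bins of 200 bp, from 2000 bp before to 2000 bp after the most upstream annotated start, for chemoreceptor genes (red), other protein-coding genes (grey), other genes weighted to the same 1 Mb bins (blue) and other genes without an annotated 5′ UTR (orange). The red line stays between 11.5 and 22.9 throughout, and the other 3 rise just before the start.

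Measured over sequence rather than genes, the receptor promoters were sparse in summits. Their windows covered 2.62 Mb and held 233 pooled-list summits, or 88.9 per Mb, against 238 per Mb in the windows of other genes and 206 per Mb over the nuclear genome. The density was 104 per Mb in replicate 1 and 98.1 in replicate 2, against 214 and 187 over the genome. For reproducible summits it was 1.91 per Mb against 5.38 over the genome, from 5 and 539 summits. Of the 233, 117 (50.2%) lay upstream of the receptor start, against 57.6% of summits near other genes only, and 18 were nearer to the start of a gene that is no receptor gene.

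Among the families, sre had the highest share of genes with a pooled-list summit, at 18 of 54 (33.3%, 21.1 to 47.5). Other genes of the same bins had 35.9%. The sre family, of the Sra superfamily, also supplied 2 of the 5 genes with a reproducible summit. Its 18 genes, 13 of them on chromosome II where 33 sre genes lie, were reached by 20 summits, of which 5 lay in a region of both replicates. Beyond sre-23 and sre-1 they ranked from 2720 (sre-26) to 20565 (sre-47), and the strongest summit lay upstream in 6 of the 18. In the replicates' own lists 19 sre genes (35.2%) and 16 (29.6%) had a summit, and 8 had one in both lists, not necessarily at the same place. In replicate 2 alone srr (4 of 9, 44.4%) and srz (19 of 63, 30.2%) had higher shares than sre.

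The order of the other families was loose. After sre came srxa (5 of 17, 29.4%), srt (15 of 61, 24.6%), srd (13 of 67, 19.4%), srbc (13 of 71, 18.3%) and srz (11 of 63, 17.5%). Some of these shares moved between the replicates' own lists, for srxa from 17.6% in replicate 1 to 23.5% in replicate 2, for srt from 31.1% to 18%, for srbc from 14.1% to 11.3% and for srz from 15.9% to 30.2%. The large families srh (36 of 220, 16.4%, 11.7 to 21.9) and str (27 of 193, 14.0%, 9.43 to 19.7) were close to the share of all receptor genes. At the other end stood sra (2 of 35, 5.71%, 0.7 to 19.2), with sra-33 and sra-9, and srb (0 of 12, upper bound 26.5%). In the lists of replicates 1 and 2 srb had 2 genes and 1, and sra 4 and 3. Neighbours in this order had overlapping intervals. Of the 21 families with 6 or more members, 14 had an interval that lay below the share of other genes in the same bins, and the intervals of the other 7 (sre, srxa, srt, srbc, srm, srab and srr) included it. By superfamily the shares were 18.5% for Sra (23 of 124), 15.5% for Str (91 of 588), 16.5% for Srg (51 of 309) and 15.2% for the families outside these 3 (44 of 289). The superfamilies Srg and those outside had no reproducible summit.

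The strongest summits of the families not yet described stood far down the pooled list. For srg-57 the rank was 3396, 837 bp into the gene, in a region of replicate 2 only. For srbc-58 it was 3459, 22 bp after the start, with ranks 4276 and 8937 in replicates 1 and 2. Next came srv-21 (rank 3990, 725 bp upstream), srt-61 (rank 5019, in an intron of srt-61) and srsx-25 (rank 6098, in an intron of srsx-25). The summit of srm-3 (rank 6336) lay 941 bp upstream and 168 bp from the start of amph-1, the amphiphysin gene. Those of srw-23 (rank 6811) and sra-33 (rank 6848) lay 506 and 472 bp upstream, and that of srx-45 (rank 7519) lay in an intron of srx-45. The families srab and srr had their strongest summits at srab-11 (rank 13519) and srr-2 (rank 20612), each in a region of 1 replicate only. Of these 11 genes, 7 had a summit inside a region of both replicates, and none was within 200 bp of a small RNA gene. The only srn gene had no summit in any list.

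**Figure D4:**
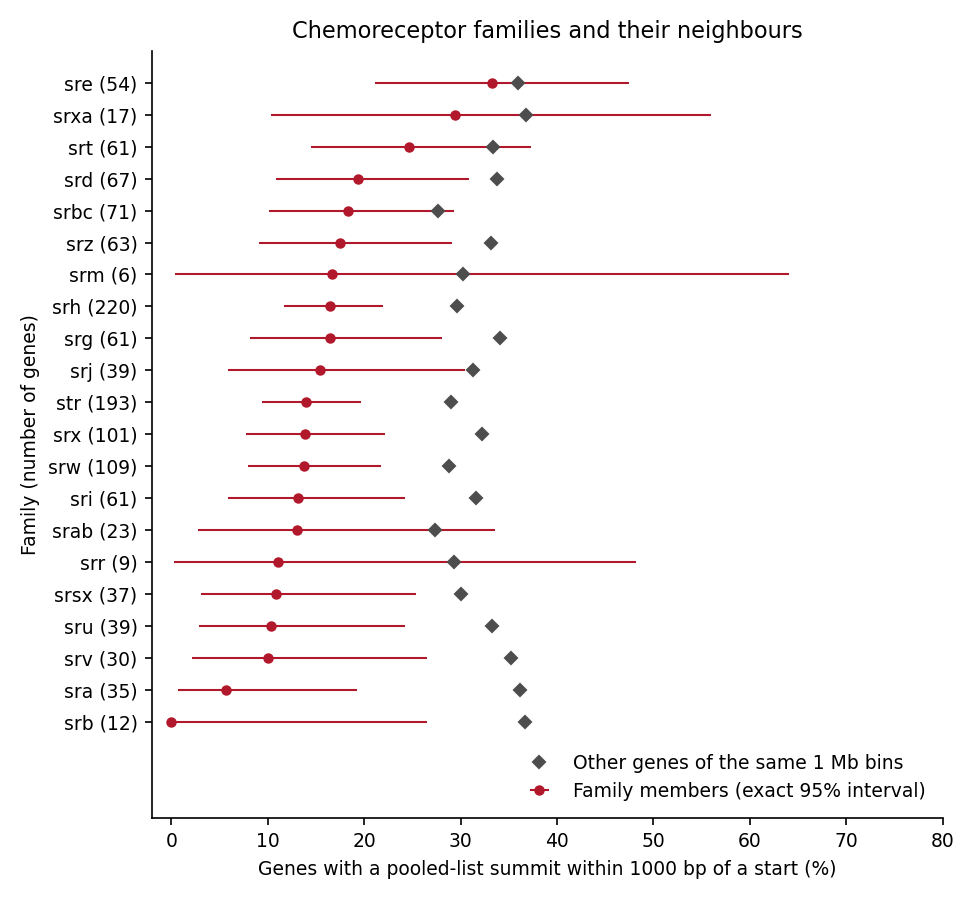
Share of genes with a pooled-list summit within 1000 bp of a start for the 21 chemoreceptor families of 6 or more genes (red points, bars are exact 95% intervals), with the share of other protein-coding genes in the same 1 Mb bins (grey diamonds). The point of each family lies to the left of its diamond, closest for sre at 33.3% and 35.9%.

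Place on the chromosomes went with the share. Of the 1310 genes, 890 (67.9%) lie on chromosome V, which holds 22.0% of other genes. There 125 receptor genes (14.0%, 11.8 to 16.5) had a pooled-list summit, against 31.2% of the other genes of that chromosome. On chromosomes I, II, III, IV and X the numbers were 7 of 34 (20.6%), 34 of 169 (20.1%), 8 of 31 (25.8%), 29 of 152 (19.1%) and 6 of 34 (17.6%), against 50.2%, 39.0%, 50.9%, 39.4% and 37.5% of other genes. In the outer 2 of 3 equal parts of the autosomes 171 of 965 receptor genes (17.7%) had a summit and in the central part 32 of 311 (10.3%), against 42.5% and 38.6% of all other genes of those parts. Among other genes of the same 1 Mb bins the order was the opposite, with 30.5% for the outer parts and 33.5% for the central part. Receptor genes with another receptor start within 5 kb had a summit in 111 of 858 cases (12.9%, 10.8 to 15.4), and the more isolated ones in 98 of 452 (21.7%, 18 to 25.8). Other genes of the same 1 Mb bins as these 2 sets differed in the same direction, at 30.0% and 33.7%.

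The crowding of starts, the base composition and the repetition of sequence also differ between receptor genes and others, so the shares are given within them. Where the start of another gene lay within 2 kb, 82 of 588 receptor genes (13.9%) had a pooled-list summit, against 41.2% of other genes, and where none did, 127 of 722 (17.6%) against 39.8%. Of receptor genes with 1 start site and no start of another gene within 2 kb, 119 of 675 (17.6%) had a pooled-list summit, against 2190 of 6512 other such genes (33.6%). The 2001 bases around the start had a median GC share of 33.8% in receptor genes and 35.5% in others. Within 5 bands of GC, receptor genes had a summit in 13.5% to 20.7% and other genes in 34.9% to 46.8%. Words of 31 bases that occur once in the genome made up a median of 99.4% of those 2001 bases in receptor genes and 100% in others. Where 90% or more of the words occurred once, 181 of 1088 receptor genes (16.6%) had a summit, against 42.8% of other genes. Below that it was 28 of 222 (12.6%) against 27.9%.

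Receptor genes of known expression or function had pooled-list summits at a share near that of all receptor genes. Of 22 such genes, a list drawn up with earlier results of these data known, 4 had one (18.2%, against 16% of all receptor genes and 38.9% of all genes): sre-1 described above, srbc-64, srd-23 and sra-9. For srbc-64, a receptor for ascaroside pheromones, the summit had rank 6705, lay in a region of replicate 1 only and stood in an exon of its neighbour Y39G10AR.15. For srd-23 it had rank 7853 and a region in replicate 2 only. For sra-9, known from the ASK neurons, it had rank 17457, in an exon of sra-9 itself, and a region in replicate 1 only. The diacetyl receptor gene odr-10 (chromosome X, 6864315 to 6865939, minus strand) had no summit in the pooled list or in replicate 1, and 1 in replicate 2 at rank 14197, 36 bp after the start. The AWC receptor gene str-2, the AWB gene str-1 and the pheromone receptor genes srg-36 and srg-37 had none in any list.

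Genes of chemosensory signalling and of sensory neuron fate, likewise listed with earlier results known, had no reproducible summit in 30 genes and a pooled-list summit in 13 (43.3%), near the 38.9% over all genes. The highest were odr-4, needed to bring receptors to the cilia (rank 839, 64 bp upstream), daf-19, the RFX factor of ciliated neurons (rank 912), ttx-1, a homeodomain factor of the AFD neuron (rank 942), and grk-2, a receptor kinase (rank 2080). All 4 genes had a summit in the lists of both replicates, though not necessarily at the same place.

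Sequence motifs in the promoters ranged widely between the families. A promoter here is the 250 bases before and 50 bases after the most upstream start, searched on both strands, with overlapping matches of different motifs both counted. CACCTG, a form of the E-box bound by basic helix-loop-helix factors, was in 286 of 1310 receptor promoters (21.8%, 19.6 to 24.2), against 8.48% of all 19973 promoters. It was in 52 of 63 srz promoters (82.5%, 70.9 to 90.9), 34 of 61 of sri (55.7%), 24 of 54 of sre (44.4%) and 88 of 220 of srh (40.0%), but in 0 of 39 of srj (upper bound 9.03%) and 1 of 71 of srbc (1.41%). In the 250 bases before the start the match stood at a median of 70.5 bp from the start in srz, 77.5 in sri, 76.0 in sre and 71.0 in srh, as in srz-58 above. Promoters of receptor genes with a pooled-list summit held CACCTG in 50 of 209 cases (23.9%, 18.3 to 30.3), and those without one in 236 of 1101 (21.4%, 19 to 24.0). Within 50 bp of the summits themselves it was in 7 of 233 (3.00%), against 2.59% of summits near other genes only.

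**Figure D5:**
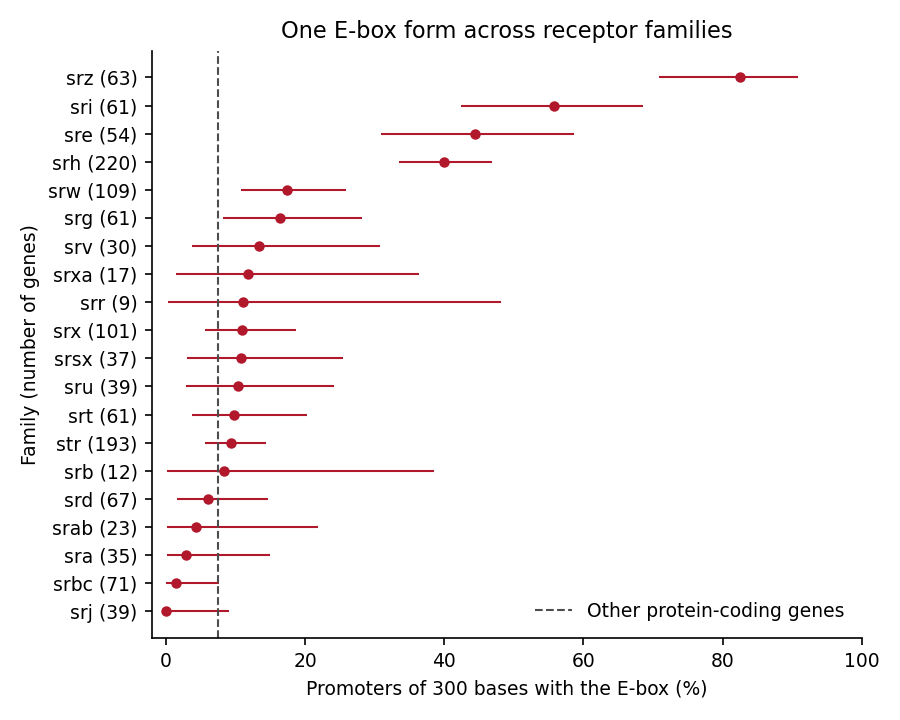
Share of 300-base promoters with CACCTG on either strand in the families of 9 or more genes (red points, bars are exact 95% intervals), with the share in other protein-coding genes (dashed line, 7.54%). The families srz, sri, sre and srh lie between 82.5% and 40.0%, and the others lie at 17.4% or below.

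The homeodomain core TAATTA was in 303 receptor promoters (23.1%, 20.9 to 25.5) against 15.5% of all promoters. TAATTG was in 362 (27.6%) against 23.6%. Receptor genes with a pooled-list summit had TAATTA in 56 of 209 promoters (26.8%, 20.9 to 33.3) and those without in 247 of 1101 (22.4%, 20.0 to 25). Within 50 bp of the 233 summits, TAATTA was in 10 (4.29%, 2.08 to 7.75), against 4.36% of summits near other genes only, and TAATTG in 24 (10.3%, 6.71 to 14.9), against 6.65%. The median GC share of those windows was 33.7% near receptor genes and 37.6% near others. Among the families of 9 or more genes TAATTA ranged from 25 of 71 srbc promoters (35.2%, 24.2 to 47.5), 11 of 35 of sra (31.4%), 21 of 67 of srd (31.3%) and 34 of 109 of srw (31.2%) down to 1 of 17 of srxa (5.88%), 2 of 39 of srj (5.13%, 0.627 to 17.3) and 0 of 12 of srb (upper bound 26.5%). GAGAGA was in 137 receptor promoters (10.5%) against 21.8% of all promoters, and CACGTG in 71 (5.42%) against 5.83%.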

How the data were processed

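LIN-11 ChIP-seq regions from 2 replicates of 1 group were used as the authors deposited them. Per the deposited notes, each replicate list and the pooled list derive from alignments and a control alignment on ce11, and the reproducible regions from those 3 lists. No label or header names the aligner, the peak caller or the thresholds. The deposited signal is a score per region and served only for ranks; the deposited summit offset placed the summit. Mitochondrial regions were left out. Gene models were from Ensembl release 115 on WBcel235, the assembly also called ce11, and sequence from RefSeq for the same assembly.

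A gene had a summit when 1 lay within 1000 bp of any start of its protein-coding transcripts. A summit was at a small RNA gene (tRNA, snoRNA, snRNA or miRNA) within 200 bp. Other genes were compared in bins of 1 Mb. Counting was tested on simulated summits. Python 3.11.15, pandas 2.3.3 and scipy 1.17.1 were used. The members and lists were chosen with earlier results of these data known. Named are all members with a reproducible summit, the 15 members of highest signal, family leaders and members of the 2 gene lists; any other was chosen after its values were seen. No condition was compared, and no p-value was computed. A gene beside 1 of the summits is not reported here.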

Additional observations from a re-analysis of the deposited data

How the results depend on the processing

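The share of receptor genes stayed below that of other genes in the same regions under each alternative that was run, for reproducible and for pooled-list summits. Of the 5 genes with a reproducible summit, 3 were counted with a window of 500 bp and 3 without summits at small RNA genes. Each 3 was 0.229% of receptor genes, against 1.19% and 1.11% of other genes in the same bins. With 2000 bp there were 13 (0.992%, against 2.29% of other genes in the same bins). In the part of the list of higher signal, 4 receptor genes had a reproducible summit (0.305%), against 0.629% of other genes in the same bins. That difference was -0.324 points in place of -1.11. The 209 genes with a pooled-list summit became 106 with 500 bp, 368 with 2000 bp, 89 in the part of higher signal and 52 when the summit had to lie in a region of both replicates. In that order these were 8.09%, 28.1%, 6.79% and 3.97% of receptor genes. The shares of other genes in the same bins were 21.5%, 43.9%, 18.3% and 12.2%. The difference of -15.3 points became -12.4 when a summit went to the nearest start only, -11.5 in the part of higher signal, -8.25 with regions of both replicates and -18.6 with chromosomes cut into 3 parts. It ranged from -14.7 to -12.4 with 1 replicate alone. The median position in the list, 56.7%, was 33.1% in the part of higher signal and 32.6% with regions of both replicates, where weaker summits are left out by construction.

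No paired analysis was possible because the series held 1 group. Read depth is unknown, so a receptor gene without a summit here is not shown to be unbound.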

Other observations

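Reproducible summits also lay a little beyond the window of some receptor genes, described here after their values were seen. Ranks in this paragraph are those within the list of reproducible regions. Between 1000 and 2000 bp of a start, str-56 had the strongest (chromosome V, 15873784 to 15874165, rank 3, signal 1119), 1407 bp after the start and 54 bp from a snoRNA gene. A single region at rank 35 on chromosome X, on a tRNA gene, lay 1241 bp before srd-43 and 1760 bp after srxa-8. Upstream of srt-11 lay 2 overlapping regions without a small RNA gene, at ranks 69 and 157 and 1410 and 1211 bp before the start. Those of srg-64 (rank 71) and sre-13 (rank 408) were at tRNA genes, and those of srh-24 (rank 147) and sre-47 (rank 412) were not.

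Other large gene families, also chosen after the receptor values were seen, had shares below the 38.9% over all genes, as the receptor genes did. A pooled-list summit was at 7 of 67 ugt genes (10.4%, 4.30 to 20.3), 51 of 240 clec genes (21.2%, 16.3 to 27.0), 80 of 322 genes of the F-box families fbxa, fbxb and fbxc (24.8%), 21 of 74 cyp genes (28.4%), 80 nhr genes (29.7%) and 48 of 156 col genes (30.8%). The receptor share of 16% lay between that of the ugt genes, which encode glucuronosyltransferases, and that of the clec genes, which encode C-type lectins. These differences were not tested.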
